A study of Mus musculus with 9 samples.

Results

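Interleukin-12 (IL-12) and its relatives are cytokines built from 2 protein chains, and chains are shared between them. The chain encoded by Il12b pairs with the Il12a product to give IL-12 and with the Il23a product to give IL-23, while the Ebi3 product pairs with the Il27 product to give IL-27 and with the Il12a product to give IL-35. IL-12 drives type 1 responses of T cells and natural killer (NK) cells, IL-23 sustains type 17 responses, IL-6 is an inflammatory cytokine, IL-10 restrains inflammation, and IL-15 is held on the surface of dendritic cells by the receptor chain encoded by Il15ra and presented to lymphocytes. The genes described here are the 10 whose symbols are Il12a, Il12b, Il23a, Ebi3, Il27, Il6, Il10, Il15, Il15ra and Il12rb2, a receptor chain for IL-12. Each matched 1 row of the 45535 rows of the gene table that carry a symbol.

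The RNA came from lung dendritic cells with CD103, an integrin that marks most type 1 conventional dendritic cells of the lung. All samples came from C57/BL6j mice treated for 7 days with bleomycin, which injures the lung and leads to fibrosis, and the cells were pulled with magnetic beads from lung tissue digested with collagenase. The extraction note in the labels speaks of lung RNA, although the cell type label names CD103+ DCs. The groups were 5 samples harvested directly (before culture) and 4 samples kept for 18 h in serum-supplemented RPMI with antibiotics (after culture). Untreated lung is not part of the comparison, and no stimulus beside the medium is named. Nothing in the labels tells single animals from pools, so p-values measure the spread between these samples, which may in part be technical.

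Depth in rows with a symbol ran from 14.7 to 35.3 M reads per sample, and 1 read was worth a normalized read count of 0.758 to 1.79. Replicates correlated at 0.979 to 0.989 within groups and 0.871 to 0.897 between groups (Pearson, log2 scale, across genes, which are not independent replicates). Of the 12 markers fixed for CD103-positive dendritic cells, none was at 0 in all samples. Of these, 9 were lower and 3 higher after culture, where 34.6% of all tested genes were lower and 34.2% higher (limma adjusted p under 0.05). Their summed normalized counts were 158050 to 188660 before and 45637 to 48051 after culture. Itgae, the gene of CD103, fell from a mean of 18138 to 1727 and Xcr1 from 5836 to 114. The 3 higher were Batf3, Flt3 and Zbtb46. Wdfy4 (mean 75717 before and 4761 after culture) was the largest part of the sum before culture. Of 10 markers of mature dendritic cells, 8 were higher and 2 lower (Cd83 and Cd86), with sums of 70413 to 72423 before and 244394 to 272675 after culture. Replicate 4 before culture stood apart from the other 4 samples of its group for several genes named here. Its summed NK cell markers were 4596 against 2845 to 3053 in the others, its T cell markers 9052 against 7452 to 7570, and its lung epithelial markers 35714 against 18091 to 22467. Its macrophage and monocyte markers were the lowest (44930), but the others were themselves widely spread (55447 to 74368). Results that this sample changes are given with and without it.

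All 10 genes were among the 18202 that reached a mean normalized count of 10 and were tested. After culture 3 genes rose (Il15, Il15ra and Il12rb2), 4 fell (Il23a, Ebi3, Il6 and Il10), and 3 did not pass the threshold (Il12a, Il12b and Il27), at a limma adjusted p of 0.05. That is 70.0% of the genes, where 68.8% of all tested genes passed, 34.2% as higher and 34.6% as lower, so the share that passed was near the background. The median log2 fold change was −0.26 over the 10 genes and 0.0065 over all tested genes. The groups did not overlap for 6 of the 10 genes (2 higher and 4 lower), against 57.3% of all tested genes, 28.7% as higher and 28.6% as lower. Fewer cells of a type and less RNA per cell cannot be told apart in these bulk samples.

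**Figure D1:**
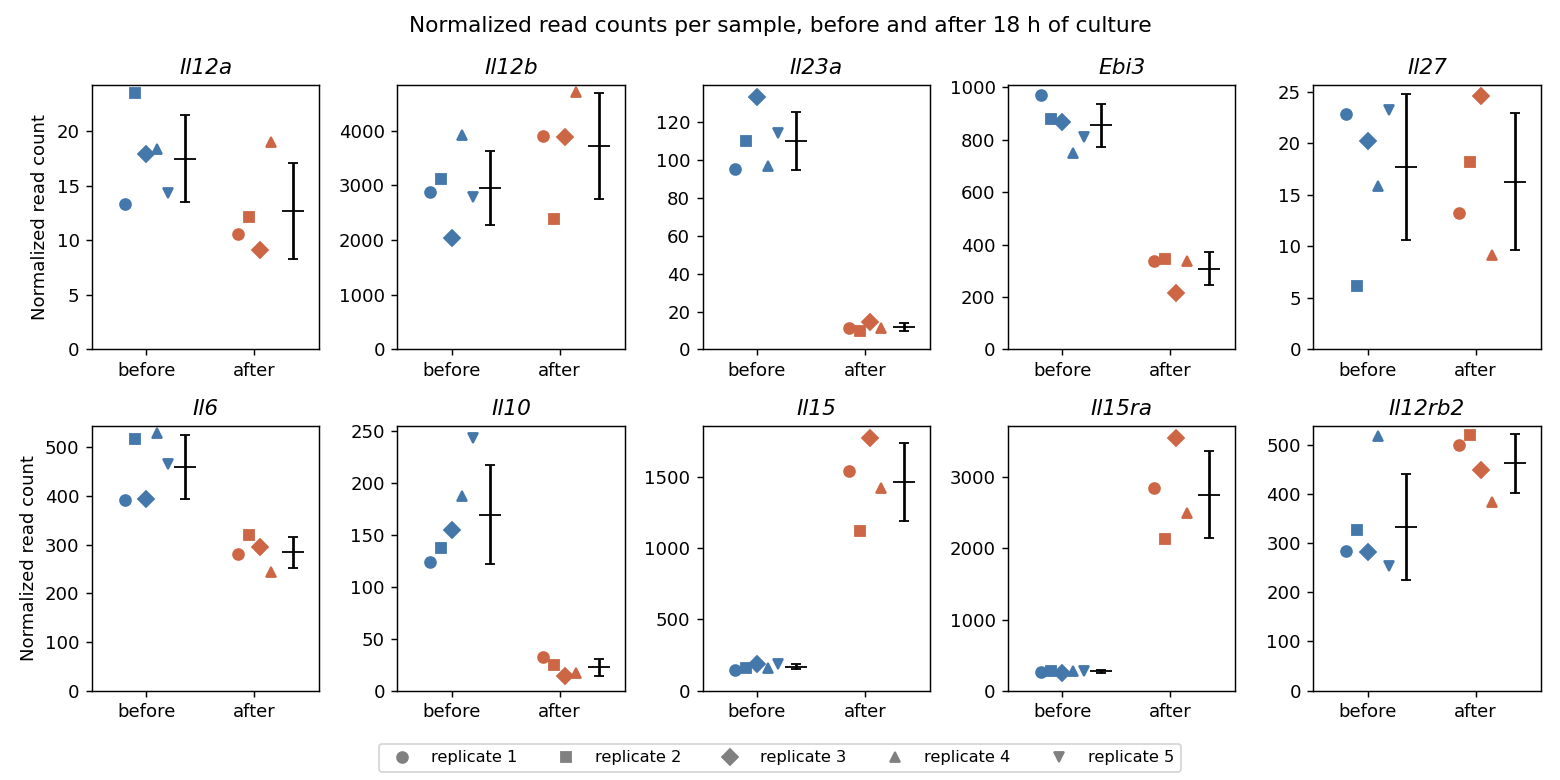
Normalized read count of each gene (vertical axis, from 0, a different scale in each panel) in the 5 samples before and the 4 samples after culture, with marker shape giving the replicate and black bars the mean and SD. Il15 and Il15ra sit far higher and Il23a and Il10 far lower after culture, with no overlap of the groups, while Il12a, Il12b, Il27 and Il12rb2 overlap. Shapes follow the replicate numbers in the titles, so the same shape in both groups does not mark a pair.

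The sequences before the transcription start are shown for Il12b, which was the most abundant of the genes in both groups, for Il6 and Ebi3, which both fell, and for Il15ra, which rose. Each is the 250 bases before a RefSeq start (GRCm38.p6, strand plus), and capitals mark letters that match 1 of 6 searched motifs.

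Il12b, chr11:44399813-44400062: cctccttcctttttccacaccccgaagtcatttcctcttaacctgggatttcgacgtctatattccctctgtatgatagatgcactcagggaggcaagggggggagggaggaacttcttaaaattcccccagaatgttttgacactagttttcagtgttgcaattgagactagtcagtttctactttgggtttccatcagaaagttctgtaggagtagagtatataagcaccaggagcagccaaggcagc

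Il6, chr5:30012864-30013113: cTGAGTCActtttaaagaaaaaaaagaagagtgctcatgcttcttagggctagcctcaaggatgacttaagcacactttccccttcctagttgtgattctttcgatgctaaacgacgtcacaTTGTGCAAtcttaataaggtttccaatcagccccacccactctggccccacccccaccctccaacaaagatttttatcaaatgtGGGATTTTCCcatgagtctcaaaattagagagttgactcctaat

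Ebi3, chr17:55952373-55952622: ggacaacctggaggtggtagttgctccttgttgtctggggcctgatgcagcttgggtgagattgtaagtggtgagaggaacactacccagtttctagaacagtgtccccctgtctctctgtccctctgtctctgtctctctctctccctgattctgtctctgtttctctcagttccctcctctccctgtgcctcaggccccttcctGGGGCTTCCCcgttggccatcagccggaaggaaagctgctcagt

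Il15ra, chr2:11705462-11705711: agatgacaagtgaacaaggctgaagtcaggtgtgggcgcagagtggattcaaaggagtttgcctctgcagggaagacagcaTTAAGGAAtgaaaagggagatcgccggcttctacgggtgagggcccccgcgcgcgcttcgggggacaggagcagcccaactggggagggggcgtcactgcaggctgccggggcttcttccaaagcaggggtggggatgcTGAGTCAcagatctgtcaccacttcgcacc

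The motifs were searched on both strands. They were the NF-kappaB motif, the interferon-stimulated response element (ISRE), the STAT motif TTCNNNGAA, the AP-1 motif TGANTCA, the C/EBP motif TTNNGNAA and the composite ETS-IRF motif, which can share letters with the ISRE. Il6 held GGGATTTTCC and Ebi3 held GGGGCTTCCC, both matches to the NF-kappaB motif and both from 44 to 35 bases before the start. Of 32851 annotated starts, 7.25% held this motif in the same window. Il6 and Il15ra each held the AP-1 letters TGAGTCA, and 6.75% of starts held the AP-1 motif. Both also held a C/EBP match, as did 36.8% of starts. The window of Il12rb2 held the STAT motif match TTCTCAGAA, from 123 to 115 bases before the start. The shares of all starts were 2.98% for the ISRE, 7.02% for the STAT motif and 2.30% for the ETS-IRF motif. The Il12b window, both Il12a windows and the window of the other Il15ra start held none of the 6. The Il15ra window shown lies inside the gene as annotated, which begins at 11705290. The table gave 8 windows for 6 of the genes. A match describes letters only.

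Il15 encodes a growth and survival factor of NK cells and memory T cells, and lies on chromosome 8 from 82331632 to 82403222 (GRCm38, minus strand). Its normalized count was 147, 158, 190, 161 and 186 in replicates 1 to 5 before culture. After culture it was 1538, 1122, 1774 and 1421 in replicates 1 to 4. Every sample after culture was far above every sample before it, with replicate 3 highest and replicate 2 lowest among the cultured samples. The mean rose 8.70-fold, from 168 ± 18.7 (SD, n = 5) to 1464 ± 271 (SD, n = 4), which is 3.10 ± 0.131 (SE) on the log2 scale (limma adjusted p = 2.25e-10).

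Il15ra encodes the high-affinity chain that carries IL-15 to neighbouring cells, and lies on chromosome 2 from 11705290 to 11734317 (plus strand). Its normalized count before culture was 269, 271, 246, 282 and 283. In the cultured samples it was 2848, 2131, 3554 and 2499. The 5 samples before culture were close together, with a coefficient of variation of 5.56% against 22.0% after culture, and the cultured samples stood in the same order as for Il15. The mean rose 10.2-fold, from 270.2 ± 15.0 to 2758 ± 606, or 3.32 ± 0.124 (SE) on the log2 scale (limma adjusted p = 7.26e-11). When 1 sample was left out, the log2 fold change ran from 3.00 to 3.22 for Il15 and from 3.19 to 3.44 for Il15ra.

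The ratio of the pair moved far less than either gene. The log2 ratio of Il15 to Il15ra (each normalized count + 1) was −0.87, −0.77, −0.37, −0.81 and −0.60 before and −0.89, −0.92, −1.002 and −0.81 after culture, and the groups overlapped. The mean went from −0.69 to −0.91, a difference of −0.22 (exact two-sided permutation test, p = 0.0317, adjusted over 5 ratios 0.0397). This difference did not pass in 7 of the 9 sets that left out 1 sample: without replicate 2 (adjusted p = 0.0714), 3 (0.0714), 4 (0.0714) or 5 (0.0714) before culture, or without replicate 1 (0.0893), 2 (0.0714) or 3 (0.0893) after culture.

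Il23a encodes the chain particular to IL-23, and lies on chromosome 10 from 128296139 to 128298752 (minus strand). Its normalized count was 95.2, 110.1, 133.5, 97.1 and 115 before culture. In culture it went to 11.5, 9.86, 14.6 and 11.4. All 4 cultured samples were far below the lowest uncultured one and rested on 13 to 16 reads each. The mean was 9.31-fold lower after culture (110.1 ± 15.5 against 11.8 ± 1.97), or −3.12 ± 0.1998 (SE) on the log2 scale (limma adjusted p = 1.29e-08).

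Il10 encodes an anti-inflammatory cytokine made by many myeloid and lymphoid cells, and lies on chromosome 1 from 131019845 to 131024974 (plus strand). Its normalized count before culture was 124, 137, 155, 187 and 243. The cultured samples had 32.7, 25.0, 14.6 and 17.5. Replicate 5 was the highest before culture, and the groups lay well apart. The mean was 7.55-fold lower after culture (169 ± 47.8 against 22.4 ± 8.13), or −2.88 ± 0.258 (SE) on the log2 scale (limma adjusted p = 3.69e-07).

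Ebi3 encodes the soluble receptor-like chain of IL-27 and IL-35, and lies on chromosome 17 from 55952640 to 55957022 (plus strand). Its normalized count was 971, 877, 868, 748 and 809 before culture. The 4 cultured samples had 337, 343, 215 and 336. Replicate 3 after culture lay below the other 3, which were almost equal, and the groups did not overlap. The mean was 2.78-fold lower after culture (855 ± 83.2 against 308 ± 62.1), or −1.49 ± 0.137 (SE) on the log2 scale (limma adjusted p = 4.84e-07), and −1.33 without replicate 3 after culture. With a correction for GC content and transcript length the log2 fold change was −1.03 (limma adjusted p = 1.24e-05). The antisense gene Gm16712 overlaps exons of Ebi3, and 15.9% of the 50-base windows of the Ebi3 transcript also occur in transcripts of other genes, most of all Gm16712. Strand-specific counting is not given in the sources used here, so reads of the pair cannot be told apart. Gm16712 had normalized counts of 80.4 to 113 before and 20.5 to 47.0 after culture.

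Il6 encodes a cytokine that signals through the chain shared with IL-27, and lies on chromosome 5 from 30013114 to 30019981 (plus strand). Its normalized count before culture was 392, 516, 393, 529 and 465. Cultured samples had 281, 319, 295 and 243. The highest cultured sample stayed below the lowest uncultured one, but the gap was narrow next to those of Il23a and Il10. The mean was 1.61-fold lower after culture (459 ± 65.3 against 285 ± 31.7), or −0.68 ± 0.122 (SE) on the log2 scale (limma adjusted p = 2.35e-04). After a correction for GC content and transcript length the log2 fold change was −1.15.

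Several cell types other than CD103-positive dendritic cells make IL-6, IL-10 or IL-23, and markers of some of them moved with these genes. Of 6 markers of type 2 dendritic cells, 4 were lower, 1 was higher and 1 did not pass, and their sums did not overlap (25923 to 32689 before and 14594 to 24899 after culture). Among them Mgl2 fell from a mean of 3857 to 52.1 and Cd209a from 755 to 10.1. The higher one, Clec4a4, rose from 7.76 to 52.1, and Sirpa, with means of 14134 before and 18100 after culture, did not pass. All 8 fibroblast markers were lower after culture, with summed normalized counts of 15924 to 28858 before and 2237 to 4450 after culture. Of all tested genes, 34.6% were lower and 34.2% higher. All 8 endothelial markers were lower (sums 28130 to 43359 and 3948 to 5228), as were 7 of 8 lung epithelial markers (1 higher, sums 18091 to 35714 and 4190 to 8294) and 6 of the 7 tested neutrophil markers (1 higher, sums over 8 markers 13106 to 22538 and 6905 to 14831). The higher one, Mmp8, went from 315 to 553 before to 6093 to 13585 after culture and made up most of the later sum, while S100a9 fell from a mean of 1968 to 6.15 and Trem1 from 5047 to 43.2. Of 12 macrophage and monocyte markers, 5 were lower, 2 higher and 5 did not pass, and their sums overlapped (44930 to 74368 and 39651 to 74291). Sums of the 9 T cell markers (7452 to 9052 and 6619 to 8446) and of the 7 B and plasma cell markers (2660 to 4705 and 2587 to 3660) also overlapped. No marker on these lists was at 0 in every sample, although the neutrophil marker Ly6g was at 0 in all 4 cultured samples. The part of these cells in the falls of Il6, Il10, Il23a and Ebi3 was not tested.

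Il12b encodes the chain shared by IL-12 and IL-23, and lies on chromosome 11 from 44400063 to 44414033 (plus strand). Its normalized count was 2881, 3111, 2041, 3912 and 2794 before culture. The cultured samples reached 3911, 2384, 3879 and 4703. The groups overlapped widely, since replicate 4 before culture was as high as replicate 1 after culture and replicate 2 after culture was lower than 4 of the 5 uncultured samples. The mean was 2948 ± 672 before and 3719 ± 968 after culture, or 0.32 ± 0.192 (SE) on the log2 scale (limma adjusted p = 0.149). It passed as higher without replicate 4 before culture (log2 fold change 0.43, limma adjusted p = 0.0490) or with replicate 2 of the cultured samples left out (0.52, 0.0106). Leaving out single samples gave limma adjusted p-values between 0.0106 and 0.405. With sample weights it also passed (0.46, 0.0210), as it did with a replicate block by library number (0.35, 0.00861).

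Il12a encodes the chain that completes IL-12, and lies on chromosome 3 from 68690644 to 68698547 (plus strand). Its normalized count before culture was 13.3, 23.5, 18.0, 18.4 and 14.3. After culture it was 10.6, 12.1, 9.10 and 19.0. These values rest on 8 to 25 reads per sample and the groups overlapped. The mean was 17.5 ± 4.02 before and 12.7 ± 4.38 after culture, or −0.46 ± 0.305 (SE) on the log2 scale (limma adjusted p = 0.199).

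Il27 encodes the helical chain of IL-27, and lies on chromosome 7 from 126589010 to 126594941 (minus strand). Its normalized count was 22.9, 6.19, 20.2, 15.9 and 23.3 before culture. After culture it was 13.2, 18.2, 24.6 and 9.12. The values rest on 5 to 27 reads per sample and spread as widely within groups as between them. The difference was −0.07 ± 0.407 (SE) on the log2 scale (limma adjusted p = 0.883), and its sign changed under several alternatives. Exons of Il27 overlap those of Apobr on the opposite strand, and Apobr had normalized counts of 1261 to 1844 before and 464 to 864 after culture. Of the Il27 windows, 5.56% are shared, most of all with Apobr.

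**Figure D2:**
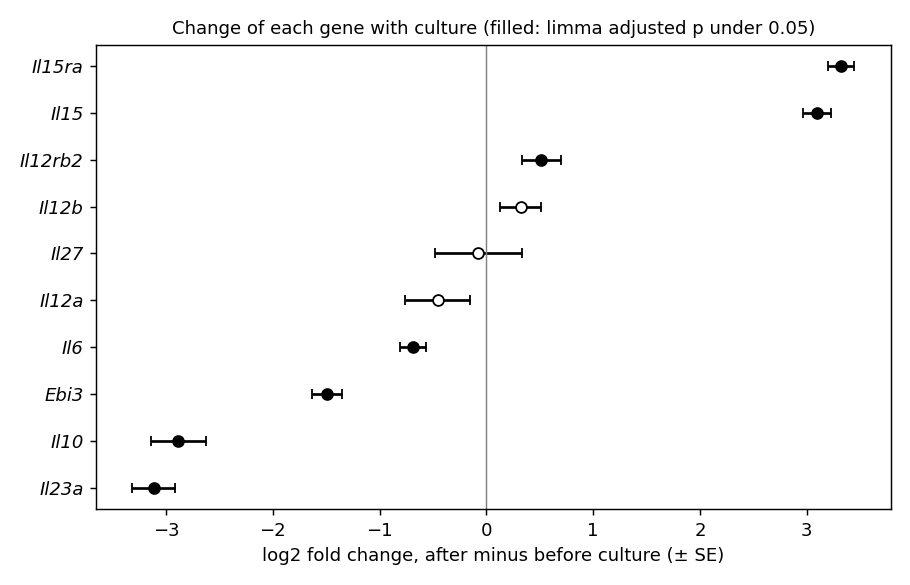
Log2 fold change of each gene (horizontal axis, after minus before culture) with its standard error, filled where the limma adjusted p was under 0.05. Il15ra (3.32) and Il15 (3.10) lie at the right, Il23a (−3.12) and Il10 (−2.88) at the left, and the open points are Il12a, Il12b and Il27.

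Il12rb2 encodes the signalling chain of the IL-12 receptor, best known on T and NK cells, and lies on chromosome 6 from 67291318 to 67376188 (minus strand). Its normalized count was 283, 325, 282, 518 and 252 before culture. After culture it was 498, 519, 449 and 383. Replicate 4 before culture was level with the highest cultured sample, while the other 4 uncultured samples were below all cultured ones. The mean was 1.39-fold higher after culture (332 ± 107 against 462 ± 60.3), or 0.52 ± 0.181 (SE) on the log2 scale (limma adjusted p = 0.0216). Without replicate 4 before culture the log2 fold change was 0.69 (limma adjusted p = 2.03e-04). The gene did not pass without replicate 1 (limma adjusted p = 0.0503) or 5 (0.0543) before culture, or without replicate 1 (0.0595) or 2 (0.0556) after culture. Nor did it pass with a replicate block by title number (limma adjusted p = 0.0894).

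The end of Il12rb2 overlaps exons of Serbp1 on the opposite strand, and 24.6% of its windows are shared, most of all with Serbp1. Serbp1 had a normalized count of 3585 ± 154 before and 3467 ± 200 after culture (SD, limma adjusted p = 0.535), far above that of Il12rb2, and reads of this pair cannot be told apart either. Among NK cell markers 7 of 8 were lower after culture and 1 did not pass, with sums of 2845 to 4596 before and 1235 to 1905 after culture, the reverse of the direction of Il12rb2. Among T cell markers 1 was higher, 2 were lower and 6 did not pass, where 34.2% of all tested genes were higher and 34.6% lower. The part of these cells in the Il12rb2 value was not tested.

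Levels of different genes were compared per 1000 bases of exon sequence. Before culture Il12b led at 1499 ± 342 normalized counts per 1000 bases (SD, n = 5), followed by Ebi3 at 741 ± 72.1 and Il6 at 189 ± 26.9. Il10 (129), Il12rb2 (87.5), Il15 (74.4), Il15ra (60.8) and Il23a (49.0) came next, and Il27 (17.3) and Il12a (10.3) were the lowest. Neighbours in this order whose sample ranges overlapped were Il6 and Il10, Il10 and Il12rb2, Il12rb2 and Il15, Il15ra and Il23a, and Il27 and Il12a.

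After culture Il12b still led at 1891 ± 492 normalized counts per 1000 bases (SD, n = 4), but Il15 (647 ± 120) and Il15ra (620.3 ± 136) now followed, with overlapping ranges. Ebi3 followed at 267, then Il12rb2 (122) and Il6 (117) with overlapping ranges. Il10 (17.1), Il27 (15.9), Il12a (7.47) and Il23a (5.26) were the lowest, each overlapping its neighbour. With the longest transcript as the length, Il15ra stood above Il15 in both groups (117 against 88.2 before and 1191 against 767 after culture per 1000 bases).

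**Figure D3:**
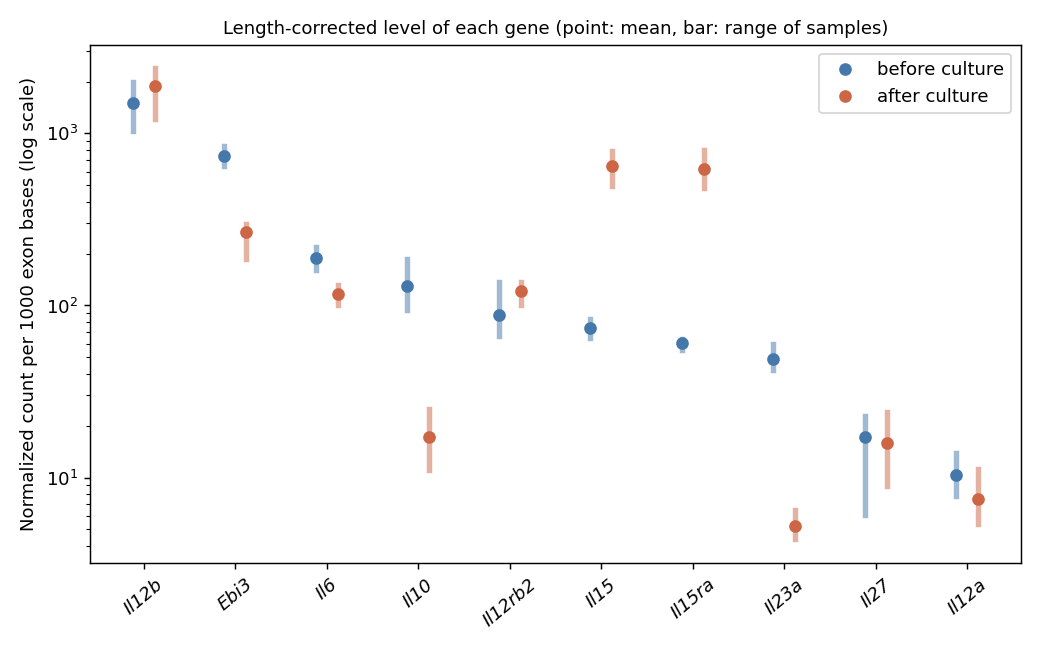
Level of each gene per 1000 exon bases (vertical log axis), as group means (points) and sample ranges (bars), ordered by the level before culture. Il12b is highest in both groups, and Il15 and Il15ra move from the middle of the order to just below it.

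The 2-chain cytokines need both partners, so the ratio of partner transcripts was taken within each sample, where the scaling between samples cancels apart from the added 1. Effects of GC content and length on each gene do not cancel, and the ratios were not taken again after the GC and length correction. With it the log2 fold change was 0.24 for Il12b, −2.94 for Il23a, −1.03 for Ebi3, 0.32 for Il27 and −0.59 for Il12a. For Il15 it was 3.20 and for Il15ra 3.32. For 3 of the 5 ratios the groups did not overlap (Il12b to Il23a, Ebi3 to Il27 and Ebi3 to Il12a), each with the smallest p that 5 against 4 samples allow in an exact two-sided permutation test (p = 0.0159, adjusted over 5 ratios 0.0265). Each of these ratios sets Il23a or Ebi3, which fell with no overlap of the groups, against a partner that did not pass. They are therefore not independent of those falls. The log2 ratio of Il12b to Il23a was 4.90, 4.81, 3.92, 5.32 and 4.60 before and 8.29, 7.78, 7.96 and 8.57 after culture, a difference of 3.44. Per 1000 bases of exon sequence, the Il12b transcript went from 29.9 to 325 times the Il23a transcript. Such folds come from the mean log2 ratio and differ from ratios of the mean levels above. With the longest transcript as the length, this fold went from 23.2 to 252.

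The log2 ratio of Ebi3 to Il27 was 5.35, 6.93, 5.36, 5.47 and 5.06 before and 4.57, 4.17, 3.08 and 5.06 after culture, a difference of −1.42. The highest cultured and the lowest uncultured sample were almost level, and replicate 2 before culture, with 5 Il27 reads, stood above the others. The log2 ratio of Ebi3 to Il12a was 6.08, 5.16, 5.52, 5.27 and 5.72 before and 4.86, 4.71, 4.42 and 4.07 after culture, a difference of −1.04. With the GC and length correction, the log2 fold changes of Ebi3 (−1.03) and Il12a (−0.59) lay closer together than without it (−1.49 and −0.46). Per 1000 bases, by the mean log2 ratio, Ebi3 remained in excess of Il27 (43.9 times before and 16.4 times after culture) and of Il12a (69.2 and 33.7 times). With the longest transcript the excess over Il12a was 53.0 and 25.8 times. Without replicate 1 or without replicate 3 after culture, these 3 ratios had an adjusted p of 0.0595, where 5 against 3 samples allow few splits.

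The log2 ratio of Il12b to Il12a was 7.65, 6.99, 6.75, 7.66 and 7.51 before and 8.40, 7.51, 8.59 and 7.88 after culture. The groups overlapped, and the difference of 0.78 did not pass (exact two-sided permutation test, p = 0.0635, adjusted over 5 ratios 0.0635). It passed without replicate 2 after culture (difference 0.98, adjusted p = 0.0446) and with 0.5 added in place of 1 (0.80, adjusted p = 0.0476). Per 1000 bases, by the mean log2 ratio, Il12b was 137 times Il12a before and 236 times after culture. With the longest transcript it was 106 and 183 times. These folds rest on the few Il12a reads.

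**Figure D4:**
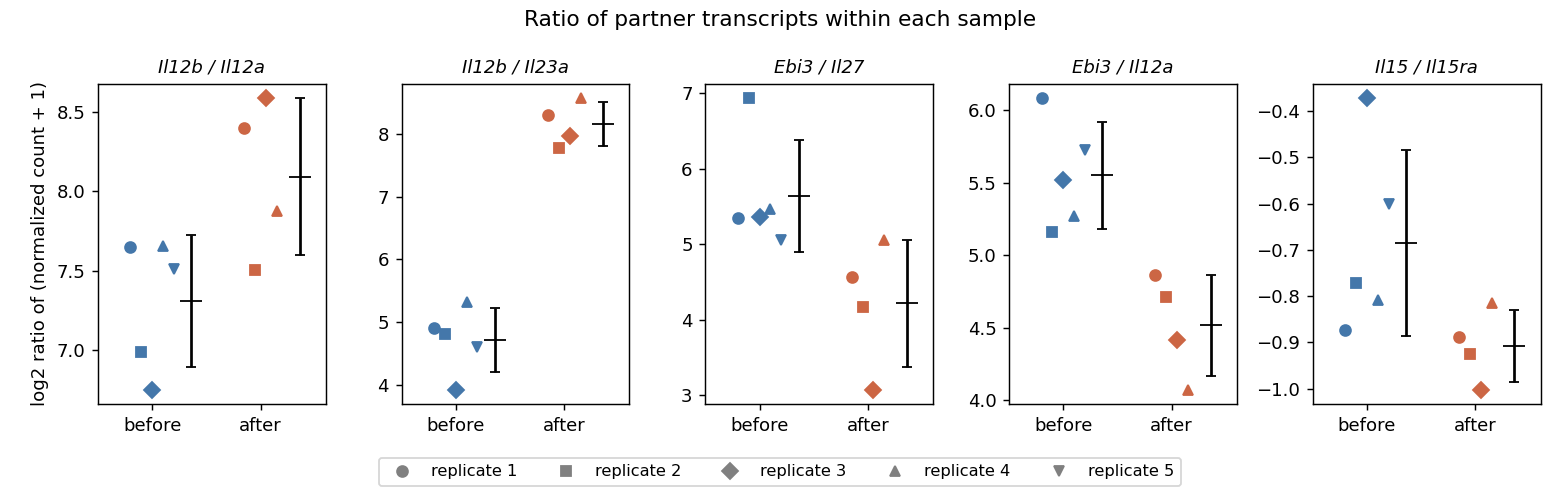
Log2 ratio of partner transcripts (vertical axis, a different range in each panel) in each sample before and after culture, with marker shape giving the replicate and black bars the mean and SD. The Il12b to Il23a ratio lies at 3.92 to 5.32 before and 7.78 to 8.57 after culture, while the Il12b to Il12a and Il15 to Il15ra ratios overlap. Shapes follow the replicate numbers in the titles, so the same shape in both groups does not mark a pair.

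Of 92 genes on 7 lists of pathway partners, 85 were tested. The share that passed ran from 66.7% to 100% by list, where 68.8% of all tested genes passed, 34.2% as higher and 34.6% as lower. No list was tested as a whole against this background. The 9 other receptor chains for these cytokines all passed, 6 higher and 3 lower, with a median log2 fold change of 0.58. Il6st, the signal chain shared by the IL-6 and IL-27 receptors, rose from 6670 ± 745 to 13383 ± 993, whereas Il6ra, the chain that binds IL-6, fell from 4615 ± 333 to 2308 ± 64.6. Il10ra, the ligand-binding chain for IL-10, fell from 5102 ± 237 to 2530 ± 215, and Il10rb rose from 2227 ± 283 to 3800 ± 562 (19.5% of windows shared).

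Il2rb, the chain through which IL-15 signals, fell from 4275 ± 543 to 1453 ± 55.6 (log2 fold change −1.55, or −1.11 after the GC and length correction). Il2rg, its partner, rose from 3611 ± 279 to 5414 ± 504, with 42.0% of windows shared, most of all with Gm20489. Il23r rose from 132 ± 48.4 to 436 ± 89.2 and Il27ra from 517 ± 45.4 to 814 ± 216. Il12rb1, the chain shared by the IL-12 and IL-23 receptors, went from 160.6 ± 19.998 to 207 ± 37.9 with overlapping groups (limma adjusted p = 0.0442), and the log2 fold change was 0.36, or 0.98 after the GC and length correction. The correction also moved Il27ra from 0.62 to 1.10, Il6ra from −0.997 to −0.65 and Il10ra from −1.01 to −0.65. The call of Il12rb1 was lost without replicate 2 (0.0553), 3 (0.0528), 4 (0.0890) or 5 (0.0728) before culture, or without replicate 1 (0.163) or 4 (0.0871) after culture.

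Of 15 JAK-STAT signalling genes, 9 were higher and 3 lower, with a median of 0.37. Stat4, the transcription factor activated by IL-12, rose from 532 ± 64.5 to 5627 ± 599 (log2 fold change 3.40, 28.6% of windows shared, most of all with Gm28177). Socs2 rose from 912 ± 75.5 to 5248 ± 361. The 3 lower genes were Socs3, a feedback inhibitor of IL-6 signalling (19060 ± 2672 against 1420 ± 313), Cish (4581 ± 323 against 984 ± 245) and Jak3, the kinase bound to the Il2rg product (3428 ± 386 against 1692 ± 146). Stat3, which IL-6 and IL-10 activate, rose from 12822 ± 1110 to 23131 ± 893. After the GC and length correction the log2 fold change of Jak3 went from −1.01 to −0.24, that of Socs3 from −3.76 to −3.14 and that of Stat3 from 0.85 to 1.29, and all 3 still passed.

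Of 20 regulators of cytokine transcription, 4 were higher and 11 lower, with a median of −0.66. Nfkbiz, a nuclear cofactor needed for Il6 induction in myeloid cells, fell from 16909 ± 785 to 1564 ± 136 (log2 fold change −3.44). Ahr fell from 9048 ± 573 to 2905 ± 178, and Cebpb, whose product binds the Il6 promoter, from 11333 ± 3720 to 2021 ± 892 (18.1% of windows shared). Irf8, a factor of type 1 dendritic cells that acts on Il12b, fell from 18457 ± 1783 to 8465 ± 404. With the GC and length correction 8 were higher, and the log2 fold change went from −2.53 to −1.59 for Cebpb, from 0.45 to 1.14 for Nfkb2 and from 0.56 to 1.17 for Batf3. The 4 higher genes were the NF-kappaB subunits Relb (3025 ± 221 against 10029 ± 739) and Nfkb2 (7998 ± 793 against 10858 ± 490, 18.5% of windows shared), Batf3 (511 ± 95.4 against 746 ± 96.4) and Maf (1265 ± 220 against 1994 ± 480, with overlapping groups).

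Among 13 genes of microbial sensing and CD40 signalling, 7 were higher and 5 lower, with a median of 0.25. Traf3 rose from 2266 ± 158 to 4307 ± 182 and Cd40 from 1223 ± 70.1 to 2590 ± 406. Tlr7 (724 ± 113 against 1986 ± 430) and Tlr4 (962 ± 74.3 against 2205 ± 625) also rose. The 5 lower genes were Tlr3 (2807 ± 358 against 278 ± 70.7), Tlr11 (812 ± 97.0 against 121 ± 38.5), Tlr9 (3183 ± 265 against 1603 ± 118), Tlr2 (9087 ± 609 against 3318 ± 882) and the adaptor Myd88 (3729 ± 414 against 1475 ± 347). Tlr11 senses a protozoan profilin and drives IL-12 in mouse type 1 dendritic cells. After the GC and length correction the log2 fold change of Tlr9 went from −0.99 to −0.46 and that of Traf3 from 0.93 to 1.41.

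Among 9 genes that control the stability of cytokine mRNA, 2 were higher and 4 lower, with a median of 0.12 of the opposite sign to the larger count, and 5 were higher under upper quartile scaling. Zfp36, whose product promotes decay of mRNA with AU-rich elements, fell from 64573 ± 8619 to 10410 ± 188. Zc3h12a, an endonuclease that cleaves Il6 mRNA, fell from 6189 ± 291 to 1768 ± 130, and Arid5a, which stabilizes Il6 mRNA, from 7419 ± 358 to 1744 ± 241. Zfp36l2 fell from 33500 ± 5360 to 7512 ± 811, while Zc3h12c rose from 1771 ± 311 to 4327 ± 894.

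Of 13 genes induced in lymphocytes by these cytokines, 11 were tested, with 2 higher and 8 lower and a median of −2.05. Tbx21 fell from 427 ± 35.2 to 65.2 ± 7.73, Gzma from 415 ± 176 to 28.5 ± 12.1, Prf1 from 539 ± 183 to 88.1 ± 19.0 and Ifng from 137 ± 41.1 to 11.9 ± 6.24. After the GC and length correction the log2 fold change of Tbx21 went from −2.69 to −2.04. Gzma, Prf1 and Eomes are also on the NK cell list described above. Il18r1 went from 1090 ± 134 to 1427 ± 305 with overlapping groups, and lost its call without replicate 1 (limma adjusted p = 0.0602), 2 (0.0619) or 3 (0.0538) before culture, or without replicate 1 (0.0670), 3 (0.0923) or 4 (0.0679) after culture, which left 1 higher gene on the list, as did the GC and length correction.

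Of 13 related cytokines, 8 were tested, with 2 higher, 5 lower and a median of −0.49, and Il9 was at 0 in every sample. With the GC and length correction 3 were lower, and with no filter on low values 4 were higher. Osm, a cytokine of the IL-6 family, fell from 7532 ± 1803 to 777 ± 160 (log2 fold change −3.26). Il11, another member of that family, rose from 17.6 ± 7.59 to 275 ± 74.5 (log2 fold change 3.97), and Il7, a lymphocyte survival factor, from 23.1 ± 5.62 to 133 ± 16.3.

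**Figure D5:**
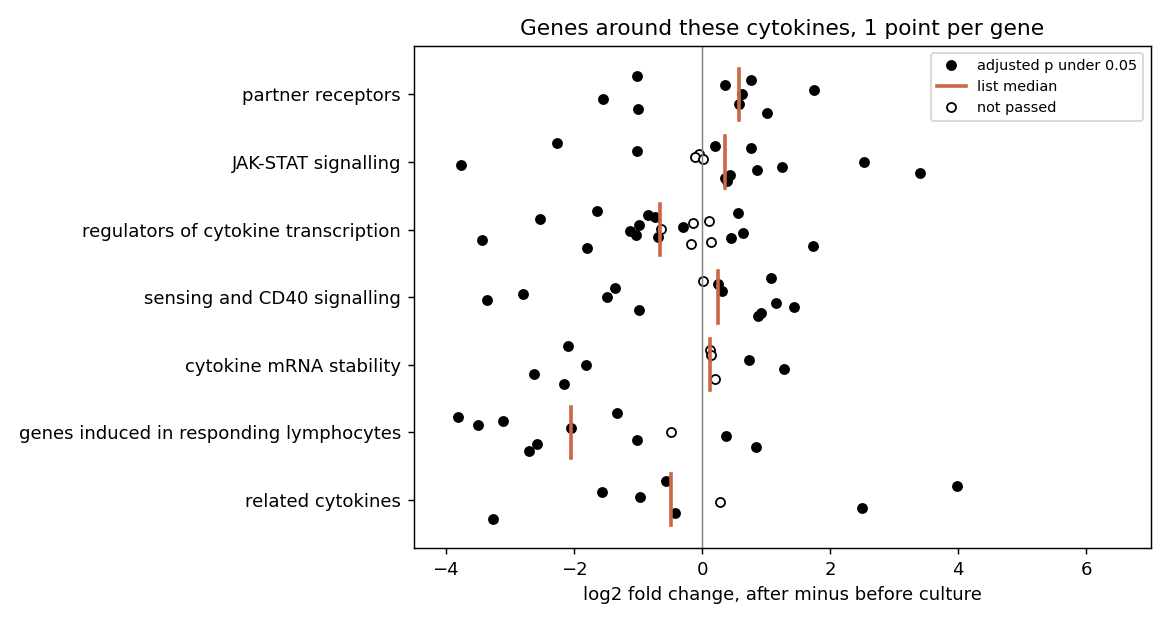
Log2 fold change of each tested gene (horizontal axis) on the 7 lists (vertical axis), filled where the limma adjusted p was under 0.05, with the list median as a vertical bar. Most lists hold genes on both sides of 0, and the medians run from −2.05 for genes induced in lymphocytes to 0.58 for the partner receptors.

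By the distance between centred log2 profiles over the 9 samples, the genes most like Il15 among 11785 candidates were Pfkfb3 (3851 ± 197 before and 31847 ± 3141 after culture, root mean square distance 0.128), Gm42603 (0.136) and Gm37795 (0.158). Pfkfb3 encodes an enzyme that promotes glycolysis. Genes close to Il23a by the same measure included Spc24 (177 ± 18.2 against 17.9 ± 1.55, distance 0.160) and Armcx4 (0.165). Those most like Il6 were Phgdh (441 ± 56.0 against 254 ± 35.4, distance 0.118), Nop58 (0.124) and Larp1b (0.126), and those most like Il12b were Xlr4a (114 ± 22.0 against 164 ± 40.7, distance 0.118), Myo1h (0.135) and Lrrtm2 (0.154).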

How the data were processed

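For 9 samples, 1 table deposited by the authors held a signal, the read count of each gene after normalization. Per the submitters' processing notes the build was GRCm38 and DESeq2 was used. The aligner, counter, annotation and strand setting are not given in the sources used here. All values (100%) were whole multiples of the value of 1 read in their sample (within 1e-06 reads), so whole reads were recovered. The 3782 rows without a symbol (3.87 to 10.9% of reads) were left out.

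Genes with a mean of at least 10 were tested with limma 3.58.1 in R 4.3.3 on log2(value + 1), with group as the only term and a mean-variance trend, two-sided, with Benjamini-Hochberg adjustment over all tested genes. Folds are ratios of group means, while log2 fold changes come from log2(value + 1) and so understate the change of low genes. Ratios of partners were compared by exact permutation with SciPy 1.17.1. Scripts were tested on simulated data.

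The members and lists were chosen with earlier results of these data known. Named are all 10 genes, up to 3 genes per list with the smallest adjusted p, those against the list median, and the 3 most alike in profile with a mean of at least 100. Other list genes were named after their values were seen. Some genes that the rule names are not reported here. Positions, lengths and shared 50-base windows come from GENCODE M21 (GRCm38), whose gene models may differ from those counted, and promoters from RefSeq. Alternatives were other pseudocounts, filters, scalings, sample weights, edgeR 4.0.16 and DESeq2 1.42.0 on recovered reads, replicate blocks, a correction for GC content and length, and leaving out each sample.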

Additional observations from a re-analysis of the deposited data

Results flagged for a closer look

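Of 132 groups of values examined, 12 held a highest or lowest sample set apart from the rest of its group by a Dixon gap, where chance gives about 1 in 20. Replicate 4 before culture gave 7 of them. It was the highest for Il12rb2 (518), Il2rb (5235), Prf1 (863) and Zc3h12c (2325), and the lowest for Batf3 (347), Relb (2634) and Zfp36 (49515). After culture, replicate 3 was the lowest for Ebi3 (215) and Il2rg (4663), replicate 4 the lowest for Cish (620.4) and replicate 1 the highest for Nfkb2 (11586). Replicate 2 before culture had the highest log2 ratio of Ebi3 to Il27 (6.93).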

How the results depend on the processing

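The counts of genes higher (3, range 2 to 4) and lower (4 in every alternative) stayed within 1.5 times under all 23 alternatives. Il15, Il15ra, Il23a, Il10, Ebi3 and Il6 kept their call and direction in all of them. Il27 changed sign with GC and length correction (0.32), the same with the title-number replicate block (0.44), that block alone (0.051), quantile normalization (0.12) and upper quartile scaling (0.027), and ran from −0.39 to 0.16 when 1 sample was left out, never passing. Upper quartile scaling shifted the median of all genes by 0.11 and the GC and length correction by 0.12. Title and library numbers gave 2 possible pairings. Correlations of same-numbered deviations ran from −0.21 to 0.081 by title and from 0.045 to 0.349 by library name. Each cultured sample correlated best with its own library number, although some of these correlations were near 0. A pairing by library number therefore remains possible. The main tests used no pairing. With the block by title number Il12rb2 (limma adjusted p = 0.0894) and Il12rb1 (0.0811) did not pass, nor did Il12rb2 with GC and length correction added (0.0553). With the block by library number Il12b passed as higher (0.35, limma adjusted p = 0.00861). Over the title-number pairs, an exact sign permutation cannot go below p = 0.125, which all 4 ratios that passed without the block gave (Il12b to Il23a 3.41, Ebi3 to Il27 −1.56, Ebi3 to Il12a −0.99, Il15 to Il15ra −0.20), so this says nothing of their stability. The ratios were not tested over the library-number pairs. With 0.5 added, Il12b to Il12a passed (0.80). When 1 sample was left out, the differences ran from 3.24 to 3.59 for Il12b to Il23a, −1.70 to −1.04 for Ebi3 to Il27, −1.15 to −0.89 for Ebi3 to Il12a, −0.27 to −0.14 for Il15 to Il15ra and 0.62 to 0.98 for Il12b to Il12a. Il12a and Il27 have no value at a minimum mean of 50. With the title-number block and that correction, 7 transcription regulators were higher and 2 related cytokines lower. Il18r1 did not pass with GC and length correction (0.152). The cause of these differences between settings was not tested.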
